A study of Solanum lycopersicum with 24 samples.

Results

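The flavonoid pathway of tomato anthers was followed through 10 genes, taken from the deposited tables by identifier out of 35768 listed genes. They were chalcone synthase CHS1 (Solyc09g091510.3) and CHS2 (Solyc05g053550.3), chalcone isomerase CHI (Solyc05g010320.3), the chalcone isomerase-like gene CHIL (Solyc05g052240.3), flavanone 3-hydroxylase F3H (Solyc02g083860.3), flavonoid 3'-hydroxylase F3'H (Solyc03g115220.3), flavonol synthase FLS (Solyc11g013110.2), dihydroflavonol reductase DFR (Solyc02g085020.3), anthocyanidin synthase ANS (Solyc08g080040.3) and the transcription factor MYB12 (Solyc01g079620.3). Each identifier occurred once in both tables, and all 10 passed the filter on low counts. DFR reached the level of that filter in 12 of 12 libraries from heated plants and in 5 of 12 control libraries.

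Messenger RNA was sequenced from whole anthers of the dwarf cultivar Micro-Tom of Solanum lycopersicum in 24 libraries, 4 per group, each from 6 pooled anthers. Control plants (CT) stayed at day and night temperatures of 25 °C and 19 °C and a relative humidity of 50%. Plants under long-term mild heat (LTMH) were moved when they flowered to day and night temperatures of 34 °C and 28 °C and a relative humidity of 68%, so temperature and humidity changed together. At both temperatures anthers were collected at the tetrad stage on day 4, the free microspore stage on day 6 and the polarized microspore stage on day 8, so stage and length of exposure also changed together. In all groups the light period was 12 h, and sampling took place 5 h into it. Whether replicate libraries were from different plants is not given in the labels, so the p-values cover only the variation among these samples, which may be technical. The counts of tetrad CT replicates 1 and 2 were the most alike of 36 replicate pairs, at a chi-square per degree of freedom over genes of 4.43 against 35.7 to 52.5 for the other tetrad CT pairs and 10.5 to 136 over all the other pairs. They differed by more than sampling noise and were counted as 2 libraries. Calls that were lost when they were summed into 1 library, an alternative chosen after seeing the data, are given beside the result. Libraries held between 15657765 and 22987661 reads in genes. The deposited tables give no gene names, so the anther label was not checked against markers of anther cell types.

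Flavonoids are made from a phenylpropanoid precursor in a short chain of enzymes. Chalcone synthase builds naringenin chalcone, chalcone isomerase closes it to naringenin, and F3H turns naringenin into a dihydroflavonol. At that point the pathway divides. FLS takes dihydroflavonols to flavonols such as kaempferol and quercetin, whereas DFR and then ANS take them towards anthocyanidins, the coloured part of anthocyanins. F3'H adds a hydroxyl group that separates quercetin-type from kaempferol-type products. In anthers the tapetum, the layer that feeds the developing pollen, is a known site of flavonoid synthesis, and flavonols in pollen are known for limiting reactive oxygen species.

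In tetrad CT anthers CHS2, F3H, FLS and CHIL were the most abundant of the 10 genes and ANS and DFR the least. In FPKM, fragments scaled by library size and gene length, which allows genes of different length to be compared, the order in tetrad CT anthers began with CHS2 at 206 ± 10.6, F3H at 117 ± 4.90, FLS at 111 ± 5.94 and CHIL at 50.3 ± 3.87 (SD, n = 4). F3H and FLS overlapped there. CHI at 27.0 ± 2.02 and CHS1 at 25.6 ± 7.004 FPKM overlapped as well. MYB12 at 9.37 ± 1.03 and F3'H at 4.04 ± 0.889 FPKM came next. ANS at 0.793 ± 0.262 and DFR at 0.688 ± 0.259 FPKM were lowest and overlapped. CHS2 exceeded 97.7% of the 21429 tested genes in mean FPKM in that group, whereas DFR exceeded 10.5%.

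The order at the top held at the later CT stages, where CHS2 stood at 292 ± 81.4 and 566 ± 104 FPKM and F3H at 166 ± 40.4 and 454 ± 76.8 FPKM, with overlap between both genes at each stage. At the bottom, DFR in CT was the lowest member at every stage, and at the polarized microspore stage it lay at 0.206 ± 0.179 FPKM against 2.24 ± 1.07 FPKM for ANS. Under LTMH, DFR lay above ANS at the tetrad stage, 3.44 ± 0.485 against 1.10 ± 0.175 FPKM, and at the free microspore stage, 4.02 ± 0.153 against 1.34 ± 0.669 FPKM, without overlap at either stage. At the polarized microspore stage DFR was again lower and overlapped ANS, 1.79 ± 0.565 against 2.70 ± 0.384 FPKM. Together the 10 genes took 0.0758 ± 0.00410% of reads in tetrad CT, 0.108 ± 0.0264% in free microspore CT and 0.236 ± 0.0332% in polarized microspore CT libraries. The shares under LTMH were 0.0738 ± 0.0113%, 0.124 ± 0.0175% and 0.194 ± 0.00500% (SD, n = 4).

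**Figure D1:**
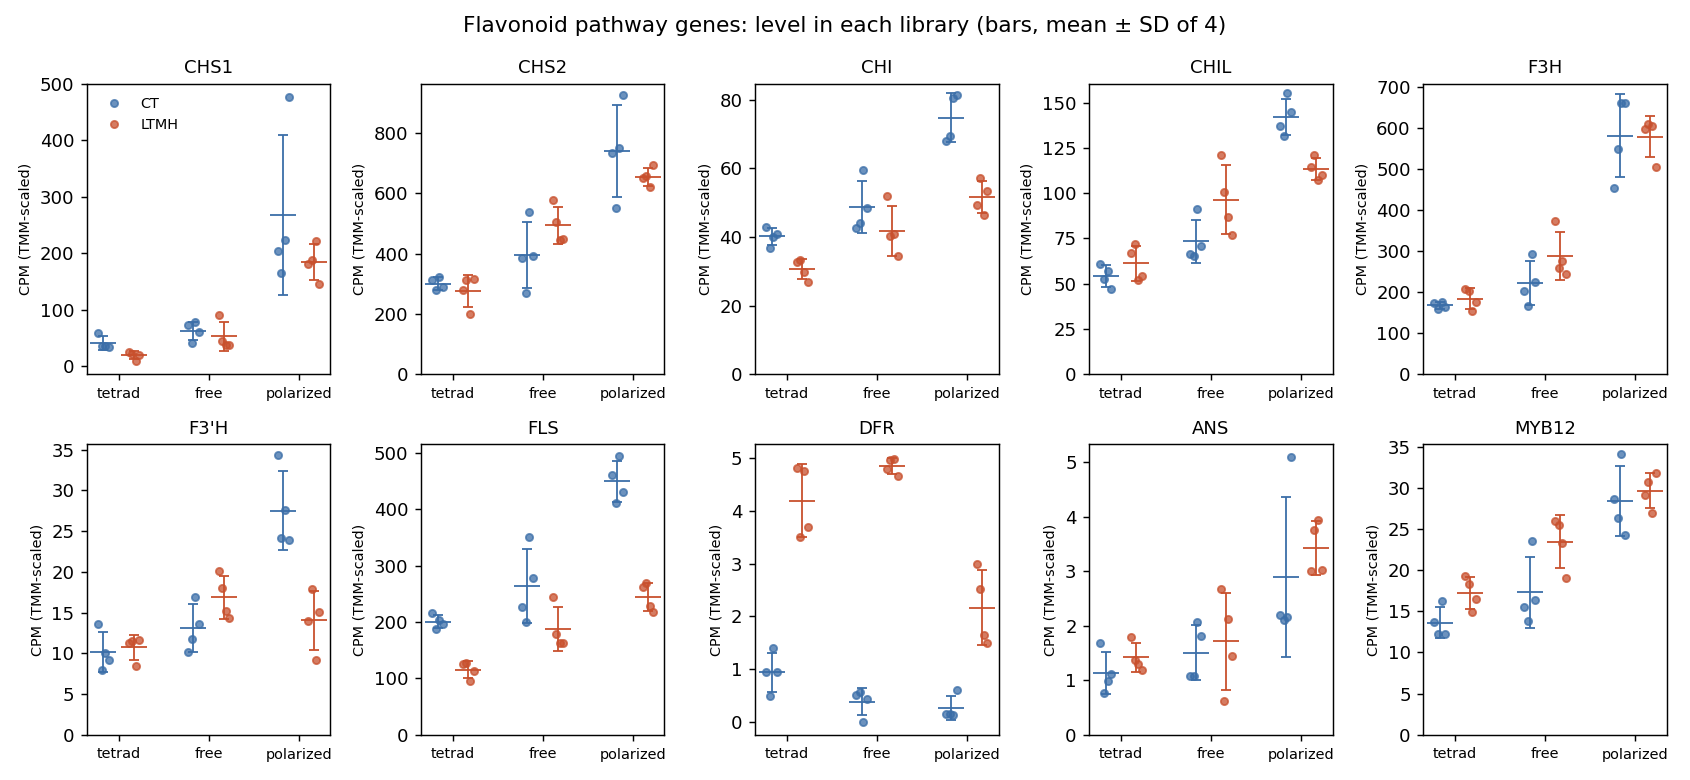
Level of each gene in CPM (read counts scaled by TMM library size) in the 24 libraries, by stage, with CT in blue and LTMH in orange; bars give the mean and SD of 4 libraries. Most genes climb towards the polarized microspore stage at both temperatures, FLS is lower under LTMH, and DFR separates by temperature, with CT means of 0.940, 0.380 and 0.254 CPM against 4.19, 4.85 and 2.16 CPM.

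FLS, on the flavonol side of the branch point, and DFR, the first step on the anthocyanin side, differed between temperatures in opposite directions. FLS was lower and DFR higher under LTMH at all 3 stages. CHI was lower at the tetrad and polarized microspore stages, CHS1 at the tetrad stage and F3'H at the polarized microspore stage. The calls of FLS at the free microspore stage and of CHS1 and CHI at the tetrad stage were lost in some other fits, given below. CHS2, CHIL, F3H, ANS and MYB12 were called at none of the single stages. Calls are those of edgeR's quasi-likelihood test, Benjamini-Hochberg adjusted over all 21429 tested genes, with a threshold of 0.05 and no minimum fold. Whole anthers were sequenced, so fewer cells of a type and less RNA per cell cannot be told apart in any of these values.

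At the tetrad stage 1 of 10 genes was called higher, against 8.23% of all tested genes, and 3 were called lower, against 12.9%. The counts at the free microspore stage were 1 higher, against 4.21%, and 1 lower, against 4.61%, and those at the polarized microspore stage 1 higher, against 8.32%, and 3 lower, against 10.7%. Without overlap between groups, 1 gene lay higher and 3 lower at the tetrad stage, against 9.33% and 13.9% of tested genes. At the free microspore stage 1 lay higher without overlap, against 6.72%, and at the polarized microspore stage 1 lay higher and 4 lower, against 12.1% and 14.1%. The median log2 change of the 10 genes was 0.11, 0.34 and -0.25 at the successive stages, where the median of all tested genes was -0.01, -0.02 and 0.00. Averaged over the stages, CHS1, CHI and FLS were called lower, against 20.2% of tested genes, and DFR and MYB12 higher, against 16.7%.

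Developmental position was also compared between temperatures. Position was measured on the line from the CT tetrad mean (0) to the CT polarized microspore mean (1) over 6085 genes, members left out. Tetrad LTMH libraries lay at 0.163 ± 0.0859 (SD, n = 4) and CT libraries had an SD of 0.0622. Free microspore libraries lay at 0.498 ± 0.182 in LTMH and 0.435 ± 0.183 in CT. Polarized microspore libraries lay at 0.874 ± 0.0244 in LTMH, and the CT libraries had an SD of 0.0735. The polarized microspore groups overlapped, with a CT minimum of 0.898 and an LTMH maximum of 0.904. The tetrad groups did not, with a CT maximum of 0.0680 and an LTMH minimum of 0.103. On this line the LTMH mean lay above the CT mean at the tetrad stage and below it at the polarized microspore stage. The CT means there are 0 and 1 by construction, and the genes were chosen by their difference between those same CT libraries. Such a choice can by itself place other libraries between 0 and 1, and a heat change in these genes would also move them. Earlier or later development is therefore not shown by these positions. The part of position in the heat changes of the members was not tested.

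**Figure D2:**
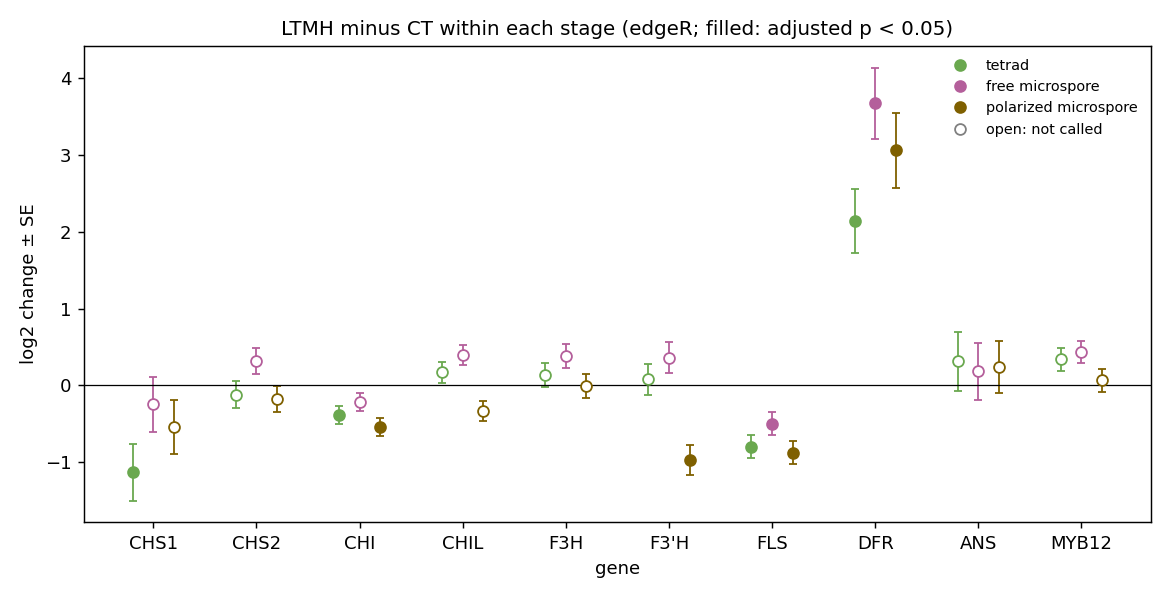
Log2 change from CT to LTMH with its standard error for each gene at the tetrad (green), free microspore (purple) and polarized microspore (brown) stage; filled points had an adjusted p below 0.05. DFR lies at 2.15, 3.67 and 3.06 and FLS at -0.80, -0.50 and -0.88, while the other genes lie between -1.13 and 0.44.

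CHS1 and CHS2 encode chalcone synthase, the entry enzyme of the pathway. They are members of 1 gene family, and how reads that match both were counted is not given in the sources used here. Levels from here on are in CPM. CHS1 in tetrad anthers was at 58.8, 34.9, 36.1 and 33.8 CPM in CT and at 25.5, 21.2, 8.83 and 19.1 CPM in LTMH. Every LTMH library lay below every CT library. Group means were 40.9 ± 12.0 CPM in CT and 18.7 ± 7.06 CPM in LTMH (SD, n = 4), and CHS1 fell (log2 change -1.13 ± 0.37 SE; adjusted p = 0.0330 in edgeR). The call was lost without tetrad CT replicate 1 (log2 change -0.91), LTMH replicate 3 (-0.90) or LTMH replicate 4 (-1.13), when only tetrad libraries were fitted (-1.08, adjusted p = 0.0540), and with tetrad CT replicates 1 and 2 summed (-1.07, adjusted p = 0.0657).

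CHS1 in free microspore anthers was at 72.0, 40.1, 77.3 and 59.4 CPM in CT and at 90.2, 44.7, 37.5 and 37.5 CPM in LTMH, with overlapping groups (log2 change -0.25 ± 0.36 SE; adjusted p = 0.738 in edgeR). LTMH replicate 1 lay well above the rest of its group. CHS1 in polarized microspore anthers was at 205, 164, 223 and 477 CPM in CT and at 181, 189, 222 and 145 CPM in LTMH (log2 change -0.54 ± 0.36 SE; adjusted p = 0.322 in edgeR). CT replicate 4, at 477 CPM, was the highest of its group, and without it the log2 change was -0.10.

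CHS2 was the more abundant chalcone synthase gene in every library. CHS2 in tetrad anthers was at 314, 278, 322 and 289 CPM in CT and at 279.6, 312, 201 and 316 CPM in LTMH. CHS2 in free microspore anthers was at 385, 269.6, 538 and 392 CPM in CT and at 577, 505, 444 and 449.6 CPM in LTMH. The groups overlapped at both stages. In polarized microspore anthers CHS2 was at 734, 553, 749.7 and 928 CPM in CT and at 651, 658, 621 and 694 CPM in LTMH, again with overlap. Its log2 changes were -0.12 ± 0.17, 0.32 ± 0.17 and -0.18 ± 0.17 (SE; edgeR adjusted p = 0.659, 0.270 and 0.524). The 95% interval of the free microspore change ran from -0.04 to 0.68.

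The division between both chalcone synthase genes moved with stage. CHS1 made up 11.01 ± 2.49% of their summed FPKM in tetrad CT libraries, 12.6 ± 1.36% at the free microspore stage and 23.8 ± 5.53% at the polarized microspore stage (SD, n = 4). In LTMH the shares were 5.69 ± 1.59%, 8.60 ± 2.64% and 20.5 ± 3.53%. The tetrad groups did not overlap in this share, with a CT minimum of 9.35% and an LTMH maximum of 7.72%. At the polarized microspore stage they overlapped, and the highest share, 32.1%, was in CT.

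CHI catalyses the closure of the chalcone ring, and CHIL is a relative known in petunia and morning glory to raise flavonoid production rather than to catalyse the step itself. CHI in tetrad anthers was at 42.8, 36.8, 40.0 and 40.9 CPM in CT and at 32.7, 33.2, 29.8 and 27.0 CPM in LTMH. All LTMH libraries were below all CT libraries, and CHI fell (log2 change -0.39 ± 0.12 SE; adjusted p = 0.0232 in edgeR). Leaving out tetrad CT replicate 1 ended it (-0.36), as did leaving out LTMH replicate 3 (-0.37) or 4 (-0.32). It was also absent under upper-quartile scaling (-0.32, adjusted p = 0.0522) and in limma on log2(FPKM + 1) (-0.22, adjusted p = 0.119) or log2(FPKM + 0.1) (-0.23, adjusted p = 0.117).

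CHI in free microspore anthers was at 42.7, 44.1, 59.6 and 48.5 CPM in CT and at 51.9, 40.2, 40.7 and 34.5 CPM in LTMH, with overlap (log2 change -0.22 ± 0.12 SE; adjusted p = 0.261 in edgeR). CHI in polarized microspore anthers was at 67.9, 69.4, 80.4 and 81.5 CPM in CT and at 49.4, 57.1, 46.4 and 53.3 CPM in LTMH. The groups did not overlap, with means of 74.8 ± 7.15 CPM in CT and 51.5 ± 4.68 CPM in LTMH (SD, n = 4). CHI fell (log2 change -0.54 ± 0.12 SE; adjusted p = 0.00287 in edgeR). The call held without any single one of the 24 libraries.

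CHIL was called at none of the stages. CHIL in tetrad anthers was at 61.0, 52.7, 57.0 and 46.9 CPM in CT and at 67.2, 71.9, 52.0 and 54.0 CPM in LTMH, with overlap (log2 change 0.17 ± 0.13 SE; adjusted p = 0.382 in edgeR), although limma on log2(FPKM + 1) called it (0.32, adjusted p = 0.0421). CHIL in free microspore anthers was at 66.5, 65.1, 91.1 and 70.9 CPM in CT and at 121, 101, 87.0 and 77.0 CPM in LTMH (log2 change 0.39 ± 0.13 SE; adjusted p = 0.0671 in edgeR). This difference missed the threshold. DESeq2 called it at an adjusted p of 0.0388 and limma on log2(FPKM + 1) at 0.0186, as did edgeR under upper-quartile scaling (0.42, adjusted p = 0.0477) and without free microspore CT replicate 3 (0.51) or LTMH replicate 4 (0.50). CHIL in polarized microspore anthers was at 137, 132, 155 and 145 CPM in CT and at 115, 121, 107 and 110.2 CPM in LTMH. There the groups did not overlap, LTMH being lower, yet the change was not called (log2 change -0.33 ± 0.13 SE; adjusted p = 0.0881 in edgeR). Fitting only the polarized microspore libraries called it (-0.32, adjusted p = 0.0113).

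F3H supplies the dihydroflavonols that both branches use; the tomato mutant are, which is low in flavonols and anthocyanins, carries a lesion in it. F3H in tetrad anthers was at 174, 158, 177 and 164 CPM in CT and at 207, 202, 153 and 175 CPM in LTMH. F3H in free microspore anthers was at 203, 165, 293 and 224 CPM in CT and at 373, 259.8, 275 and 244 CPM in LTMH. F3H in polarized microspore anthers was at 454, 549, 663 and 661 CPM in CT and at 597, 610.2, 605 and 505 CPM in LTMH. The groups overlapped at each stage. The log2 changes were 0.13 ± 0.16, 0.38 ± 0.16 and -0.01 ± 0.16 (SE; edgeR adjusted p = 0.584, 0.140 and 0.987). The middle one was called without free microspore CT replicate 3 (0.54, adjusted p = 0.0356). At the polarized microspore stage the 95% interval ran from -0.34 to 0.32, and the sign of the change turned under upper-quartile scaling (0.03).

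F3'H, which steers products towards quercetin, was lower under heat at the polarized microspore stage. F3'H in tetrad anthers was at 13.6, 7.95, 10.005 and 9.16 CPM in CT and at 11.3, 11.6, 8.47 and 11.7 CPM in LTMH (log2 change 0.08 ± 0.20 SE; adjusted p = 0.815 in edgeR). F3'H in free microspore anthers was at 10.2, 11.8, 16.9 and 13.6 CPM in CT and at 20.1, 17.97, 15.1 and 14.3 CPM in LTMH (log2 change 0.36 ± 0.20 SE; adjusted p = 0.275 in edgeR). Both pairs of groups overlapped. F3'H in polarized microspore anthers was at 34.3, 24.2, 27.6 and 23.9 CPM in CT and at 14.03, 17.9, 9.24 and 15.0 CPM in LTMH. All CT libraries were above all LTMH libraries, with means of 27.5 ± 4.84 and 14.05 ± 3.60 CPM (SD, n = 4). F3'H fell (log2 change -0.97 ± 0.20 SE; adjusted p = 0.00168 in edgeR). A share of 2.91% of tested genes had a lower log2 change in that comparison, and the call held without any single library.

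FLS, the enzyme of the flavonol branch, was lower in LTMH at every stage. FLS in tetrad anthers was at 216, 188, 204 and 196 CPM in CT and at 125, 128, 95.5 and 113 CPM in LTMH. The groups lay far apart, with means of 201 ± 11.8 and 115 ± 14.7 CPM (SD, n = 4). FLS fell (log2 change -0.80 ± 0.15 SE; adjusted p = 0.000963 in edgeR). FLS in polarized microspore anthers was at 460.4, 411, 495 and 430.1 CPM in CT and at 262, 269, 229 and 218 CPM in LTMH. Again no LTMH library reached a CT library, the means being 449 ± 36.7 and 245 ± 25.0 CPM. FLS fell here too (log2 change -0.88 ± 0.15 SE; adjusted p = 0.000432 in edgeR). Both calls held without any single library and under every other setting tried. Lower log2 changes were found in 8.17% of tested genes at the tetrad stage and in 3.56% at the polarized microspore stage.

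FLS in free microspore anthers was at 226, 201, 350.3 and 279 CPM in CT and at 245, 179, 162 and 162 CPM in LTMH. These groups overlapped, LTMH replicate 1 being above CT replicates 1 and 2. The means were 264 ± 66.0 CPM in CT and 187 ± 39.4 CPM in LTMH (SD, n = 4), and FLS fell (log2 change -0.50 ± 0.15 SE; adjusted p = 0.0403 in edgeR). The call was lost when only free microspore libraries were fitted (-0.48, adjusted p = 0.226), under upper-quartile scaling (-0.47, adjusted p = 0.0583) and in limma on log2(FPKM + 1) (-0.42, adjusted p = 0.0724) or log2(FPKM + 0.1) (-0.42, adjusted p = 0.0733). It was also lost without free microspore CT replicate 3 (-0.33) or 4 (-0.47), without free microspore LTMH replicate 2 (-0.48), 3 (-0.43) or 4 (-0.42), and without polarized microspore CT replicate 1 (-0.49) or tetrad LTMH replicate 4 (-0.49). The direction stayed negative in all of them.

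DFR, which competes with FLS for dihydroflavonols, had few reads in CT anthers and more in every LTMH library. DFR in tetrad anthers had 14, 7, 21 and 16 reads in CT, or 0.940, 0.488, 1.39 and 0.940 CPM, and 99, 66, 95 and 74 reads in LTMH, or 4.81, 3.50, 4.76 and 3.69 CPM. DFR in free microspore anthers had 9, 9, 0 and 7 reads in CT, or 0.512, 0.569, 0 and 0.437 CPM, and 88, 88, 89 and 94 reads in LTMH, or 4.79, 4.97, 4.99 and 4.67 CPM. DFR in polarized microspore anthers had 3, 3, 2 and 11 reads in CT, or 0.147, 0.151, 0.123 and 0.597 CPM, and 70, 47, 33 and 29 reads in LTMH, or 2.99, 2.52, 1.65 and 1.49 CPM. No CT library reached an LTMH library at any stage. The library with 0 reads allows a level of up to 0.167 CPM, the value of 3 reads there.

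The fitted rise of DFR was 4.42-fold at the tetrad stage (log2 change 2.15 ± 0.42 SE; adjusted p = 0.00130 in edgeR), 12.7-fold at the free microspore stage (3.67 ± 0.47 SE; adjusted p = 7.46e-05) and 8.34-fold at the polarized microspore stage (3.06 ± 0.49 SE; adjusted p = 0.000255). These folds rest on few reads in CT, 58, 25 and 19 in total over the 4 libraries of each stage. Without polarized microspore CT replicate 4, which held 11 of those 19 reads, the log2 change there was 3.88. A total of 99.0%, 99.8% and 99.0% of tested genes had a lower log2 change in the 3 comparisons. DFR remained called at each stage under every setting tried and without any single library. In limma on log2(FPKM + 1), a scale that understates changes of low genes, the log2 changes were 1.40, 1.96 and 1.20.

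ANS, which follows DFR in the anthocyanin branch, was not called at any stage. ANS in tetrad anthers was at 1.68, 0.767, 0.994 and 1.12 CPM in CT and at 1.80, 1.38, 1.30 and 1.20 CPM in LTMH. ANS in free microspore anthers was at 1.08, 1.08, 2.07 and 1.81 CPM in CT and at 2.67, 0.622, 2.13 and 1.44 CPM in LTMH. ANS in polarized microspore anthers was at 2.20, 2.11, 2.15 and 5.10 CPM in CT and at 2.99, 3.75, 3.95 and 3.02 CPM in LTMH. The groups overlapped at each stage, at the last one through CT replicate 4. The log2 changes were 0.32 ± 0.38, 0.18 ± 0.37 and 0.25 ± 0.34 (SE; edgeR adjusted p = 0.593, 0.818 and 0.677). Without polarized microspore CT replicate 4 the last was 0.67. Between 11 and 94 reads per library lie behind these values, and the 95% intervals reached from -0.49 to 1.12 at the tetrad and from -0.59 to 0.96 at the free microspore stage.

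FLS stayed far more abundant than DFR per unit of length in every group. The ratio of their mean FPKM was 162 in tetrad CT, 526 in free microspore CT and 1354 in polarized microspore CT anthers. Without polarized microspore CT replicate 4 the last was 2452, and without free microspore CT replicate 3, which had no DFR read, the second was 352. Under LTMH it was 20.9, 29.0 and 85.7. DFR and ANS together amounted to 1.33%, 0.909% and 0.876% of the FLS level in CT and to 6.34%, 4.603% and 2.93% in LTMH.

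**Figure D3:**
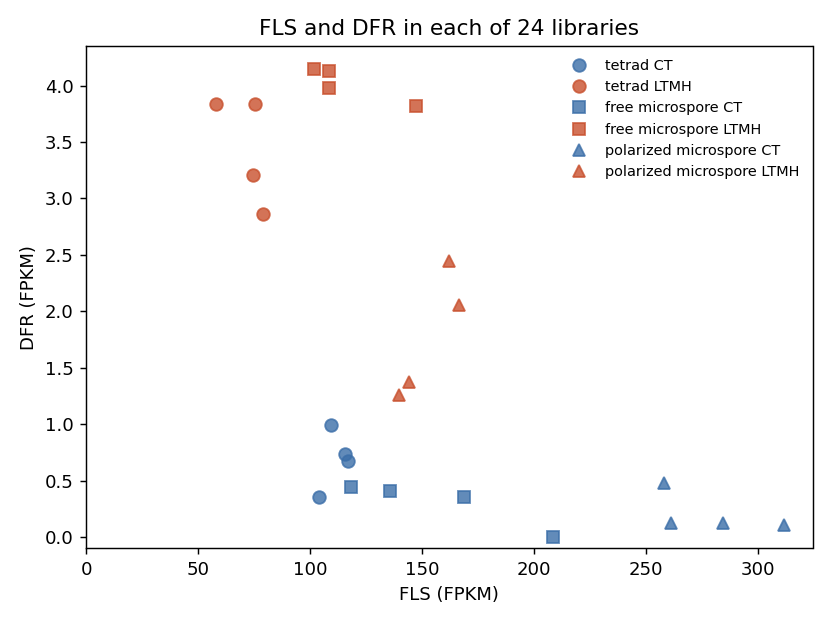
DFR against FLS in FPKM in each of the 24 libraries, with CT in blue, LTMH in orange and stages as circles (tetrad), squares (free microspore) and triangles (polarized microspore). All CT libraries lie below 1 FPKM of DFR and all LTMH libraries above it, and within the tetrad and polarized microspore stages the LTMH libraries also lie to the left on the FLS axis.

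MYB12 is an activator of the early flavonoid genes, and its loss gives tomato fruit without the yellow flavonoid of the peel. MYB12 in tetrad anthers was at 13.7, 12.3, 16.2 and 12.2 CPM in CT and at 19.2, 18.3, 14.9 and 16.4 CPM in LTMH (log2 change 0.34 ± 0.15 SE; adjusted p = 0.109 in edgeR). MYB12 in free microspore anthers was at 15.5, 13.8, 23.6 and 16.4 CPM in CT and at 26.0, 25.5, 23.3 and 19.0 CPM in LTMH (log2 change 0.44 ± 0.15 SE; adjusted p = 0.0677 in edgeR). The groups overlapped at both stages, in the latter through CT replicate 3, and without that library the change was called (0.62, adjusted p = 0.00802). It was also called without LTMH replicate 4 (0.54, adjusted p = 0.0397), in DESeq2 (adjusted p = 0.0427) and in limma on log2(FPKM + 1) (0.49, adjusted p = 0.0232), which also called the tetrad change (0.46, adjusted p = 0.0127). MYB12 in polarized microspore anthers was at 28.6, 26.4, 34.1 and 24.2 CPM in CT and at 29.1, 30.7, 27.0 and 31.8 CPM in LTMH, with overlap (log2 change 0.07 ± 0.14 SE; adjusted p = 0.809 in edgeR). Averaged over the stages MYB12 rose (log2 change 0.28 ± 0.08 SE; adjusted p = 0.0131 in edgeR). In the same average FLS fell (-0.72 ± 0.09 SE; adjusted p = 2.25e-06), as did CHI (-0.38 ± 0.07 SE; adjusted p = 0.000168) and CHS1 (-0.64 ± 0.21 SE; adjusted p = 0.0205). F3H was not called in that average (0.17), except in limma (0.25, adjusted p = 0.0263) and without free microspore CT replicate 3 (0.22, adjusted p = 0.0408). The DFR average was 2.96 and became 1.52 in limma on log2(FPKM + 1).

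The heat effect itself was compared between stages. F3'H was the 1 member called for a difference between the polarized microspore and the tetrad stage, its effect being lower at the polarized microspore stage (difference of log2 changes -1.05 ± 0.28 SE; adjusted p = 0.0380 in edgeR), where 1.38% of tested genes were called in that direction. The call was lost without tetrad CT replicate 2 (F3'H difference -0.95), 3 (-1.04) or 4 (-1.002), without tetrad LTMH replicate 1 (-1.03), 2 (-1.01) or 4 (-1.01), and without polarized microspore CT replicate 1 (-0.92) or 3 (-1.05) or LTMH replicate 1 (-1.05), 3 (-0.89) or 4 (-1.08), with adjusted p-values of at most 0.0845. In limma CHIL was called for this difference as well (-0.63, adjusted p = 0.0207).

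No member was called for a difference between the free microspore and the tetrad stage in edgeR, where 0% of tested genes were called. DFR alone of the 10 members had an unadjusted p below 0.05 there, as had 2201 of the 21429 tested genes. The heat effect of DFR was larger at the free microspore stage (difference 1.53 ± 0.63 SE; adjusted p = 0.407 in edgeR). DESeq2 and limma called 0 members in that comparison. No member was called between the polarized and the free microspore stage either, where edgeR again called 0% of tested genes. An unadjusted p below 0.05 was found there for 1794 of the 21429 tested genes, among them 2 members. These were F3'H (difference -1.33 ± 0.28 SE; adjusted p = 0.109 in edgeR) and CHIL (-0.72 ± 0.19 SE; adjusted p = 0.224 in edgeR), and DESeq2 called both, at adjusted p-values of 0.00312 for F3'H and 0.0405 for CHIL. In limma on log2(FPKM + 1) F3'H was called (-1.25, adjusted p = 0.0420). For FLS the heat effect at the polarized microspore stage differed from that at the tetrad stage by -0.08 ± 0.21 (SE). The free microspore effect differed from the tetrad effect by 0.30 ± 0.21, and the polarized from the free microspore effect by -0.38 ± 0.21. None of the FLS differences was called.

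In CT nearly all of the genes rose at the later step of development, and fewer were called higher at the earlier step. From the free to the polarized microspore stage in CT, 9 of 10 genes rose, against 19.6% of all tested genes, and none fell, against 21.4%. For all 9 the groups did not overlap, against 16.4% of tested genes higher without overlap. CHS1 rose 4.29-fold (log2 change 2.10 ± 0.37 SE; adjusted p = 0.000220 in edgeR), F3H 2.63-fold (1.39 ± 0.16 SE; adjusted p = 5.77e-06) and F3'H 2.10-fold (1.07 ± 0.20 SE; adjusted p = 0.000284). CHIL, CHS2, FLS, MYB12 and CHI rose by log2 changes of 0.95, 0.90, 0.77, 0.71 and 0.62. ANS rose as well (0.93 ± 0.36 SE; adjusted p = 0.0427), a call that was lost without polarized microspore CT replicate 4 (0.51) or free microspore CT replicate 1 (0.80) or 2 (0.80), and when only the groups compared were fitted (0.94, adjusted p = 0.0888). DFR was the exception (-0.55 ± 0.59 SE; adjusted p = 0.485). The median over the 10 genes was 0.92 against -0.03 over all tested genes.

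From tetrad to free microspore in CT 4 genes were called. CHIL (log2 change 0.43 ± 0.13 SE; adjusted p = 0.0134 in edgeR), F3H (0.40 ± 0.16 SE; adjusted p = 0.0480) and FLS (0.39 ± 0.15 SE; adjusted p = 0.0393) rose, 3 of 10 against 19.1% of tested genes. DFR fell (-1.32 ± 0.51 SE; adjusted p = 0.0444), 1 of 10 against 21.6%. CHIL was the 1 gene whose groups did not overlap, against 13.1% of tested genes higher without overlap. No member was called without free microspore CT replicate 3, the library in which 9 of the 10 genes were highest in their group and DFR had no read. The log2 changes were then 0.31 for CHIL, 0.24 for F3H, 0.23 for FLS and -0.89 for DFR. In that fit 33.7% of all tested genes were called in either direction, against 40.7% with all libraries. Without free microspore CT replicate 2, in which 7 genes were lowest, 7 members were called, against 41.9% of tested genes.

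Some of these CT calls rested on single libraries. FLS was also lost without tetrad CT replicate 1 (0.43), 2 (0.36), 3 (0.40) or 4 (0.38) or free microspore CT replicate 4 (0.37), when only the groups compared were fitted (0.39, adjusted p = 0.1004), and with tetrad CT replicates 1 and 2 summed (0.39, adjusted p = 0.0714). F3H was lost without any of 16 libraries, at log2 changes from 0.24 to 0.42. Those of the compared groups were all 4 of tetrad CT and replicates 3 and 4 of free microspore CT. The others were polarized microspore CT replicate 2, tetrad LTMH replicates 1, 2 and 4, free microspore LTMH replicates 2, 3 and 4, and polarized microspore LTMH replicates 1, 2 and 3. DFR was lost without any of 11 libraries, at log2 changes from -1.39 to -0.89. These were tetrad CT replicates 1, 3 and 4, free microspore CT replicates 3 and 4, tetrad LTMH replicate 1, all 4 of free microspore LTMH and polarized microspore LTMH replicate 2. Both were also lost with a replicate block (F3H at an adjusted p of 0.0597 and DFR at 0.0571) and with no filter. F3H was lost as well when only the groups compared were fitted (0.40, adjusted p = 0.0875), where DFR did not pass the filter, and with tetrad CT replicates 1 and 2 summed (0.39, adjusted p = 0.0916). DFR was lost under upper-quartile scaling (-1.22, adjusted p = 0.0547). In limma on log2(FPKM + 1) the DFR change was -0.38, and CHS2 (0.46), CHI (0.36) and MYB12 (0.40) were called as well. The median of the 10 genes was 0.40.

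Under LTMH, from tetrad to free microspore, 8 of 10 genes rose, against 8.95% of tested genes, and none fell, against 12.4%. For 7 of them the groups did not overlap, against 10.6% of tested genes. CHS1 rose 2.81-fold (log2 change 1.49 ± 0.37 SE; adjusted p = 0.00763 in edgeR), CHS2 1.78-fold (0.84 ± 0.17 SE; adjusted p = 0.00207) and FLS 1.62-fold (0.70 ± 0.15 SE; adjusted p = 0.00265). CHIL, F3'H, F3H, MYB12 and CHI rose by log2 changes of 0.65, 0.65, 0.64, 0.45 and 0.45. ANS (0.27 ± 0.37 SE) and DFR (0.21 ± 0.37 SE) were not called. Without free microspore LTMH replicate 1, which had the highest position of its group, 0.767, and the highest level of 9 of the 10 genes, 5 genes were called, those lost being CHI (0.33), F3'H (0.56) and MYB12 (0.39). F3'H was also lost without tetrad LTMH replicate 3 (0.55) or free microspore LTMH replicate 2 (0.62), and MYB12 without tetrad LTMH replicate 3 (0.38) or 4 (0.42) or free microspore LTMH replicate 2 (0.40) or 3 (0.45).

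From the free to the polarized microspore stage under LTMH 3 of 10 genes rose, against 12.1% of tested genes, and DFR fell, against 13.9%. Without overlap 5 genes lay higher, against 14.8%, and 1 lower, against 13.8%. CHS1 rose 3.51-fold (log2 change 1.81 ± 0.37 SE; adjusted p = 0.00164 in edgeR), F3H 2.01-fold (1.01 ± 0.16 SE; adjusted p = 0.000281) and ANS 1.99-fold (1.00 ± 0.35 SE; adjusted p = 0.0414). DFR fell by 1.16 ± 0.38 SE on the log2 scale (edgeR adjusted p = 0.0291), with every polarized microspore library below every free microspore library. CHS2 (0.41), FLS (0.39), MYB12 (0.34), CHI (0.30) and CHIL (0.23) were not called, with adjusted p-values between 0.0601 and 0.205, and F3'H lay at -0.27 ± 0.20 SE (adjusted p = 0.339). Leaving out 1 library gave between 2 and 7 called genes. The call of DFR was lost without free microspore LTMH replicate 2 (-1.15), 3 (-1.15) or 4 (-1.16) or polarized microspore LTMH replicate 3 (-1.05) or 4 (-1.02). The call of ANS was lost without free microspore LTMH replicate 2 (0.72), 3 (1.11) or 4 (0.94) or any of the 4 polarized microspore LTMH libraries (0.92 to 1.06), and when only the groups compared were fitted (adjusted p = 0.0610). The DFR call was also lost in limma on log2(FPKM + 0.1) (adjusted p = 0.0502). Without free microspore LTMH replicate 1, CHI (0.42), FLS (0.54) and CHIL (0.36) were called as well. CHI was also called in 7 other settings, with DESeq2 (adjusted p = 0.0393), median-of-ratios and upper-quartile scaling, the filter at a mean of 1 CPM, both limma fits and within-group position as a covariate. FLS was called in 5 of these 7, not under either scaling (DESeq2 adjusted p = 0.0357). CHS2 was called with within-group position as a covariate and when only the groups compared were fitted (adjusted p = 0.0130), as was MYB12 in the latter (adjusted p = 0.0377). Without free microspore CT replicate 3, CHI, FLS and MYB12 were called, without free microspore CT replicate 2, CHS2 and FLS, and without polarized microspore CT replicate 1 or tetrad LTMH replicate 4, CHI. Consecutive steps share the free microspore libraries, and each step shares its libraries with the heat comparisons, so these results are not independent of each other. The difference between a step in CT and in LTMH equals the difference of the heat effect between those stages given above.

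**Figure D4:**
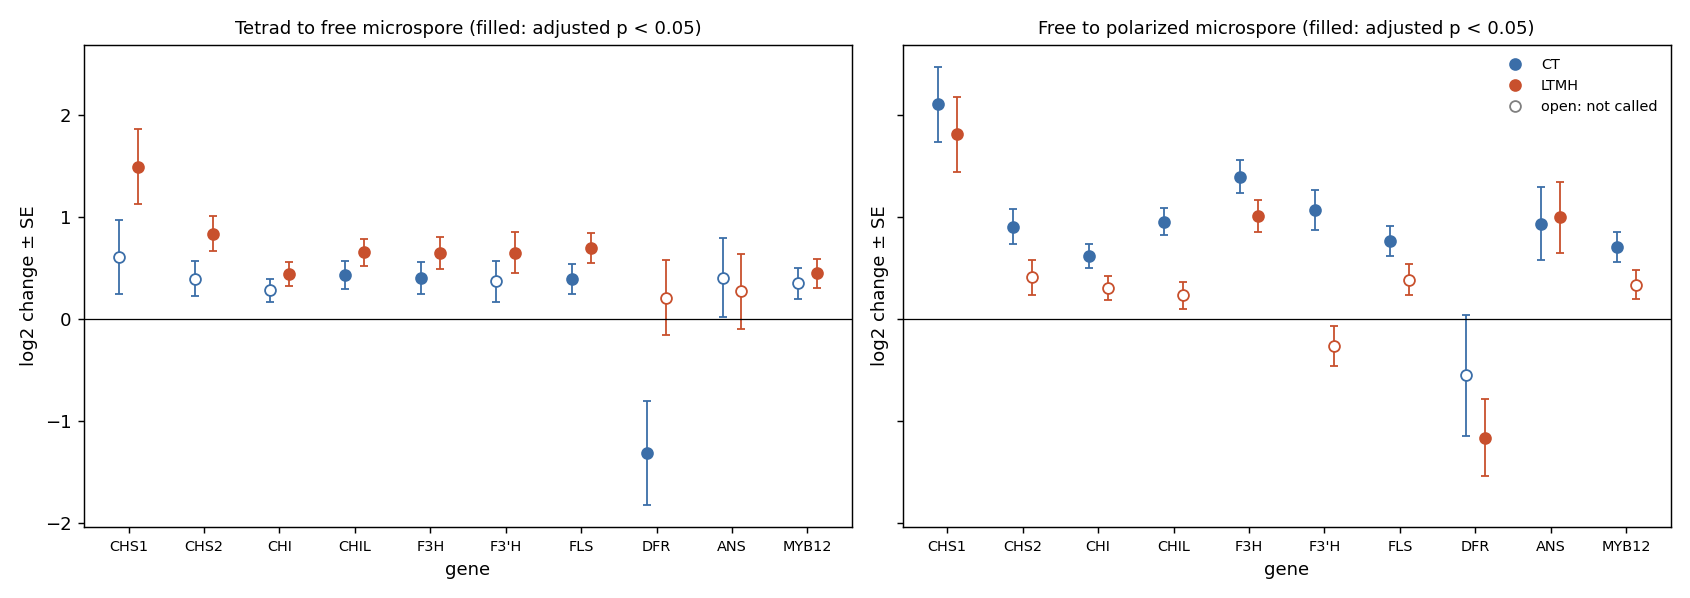
Log2 change with its standard error for each gene from tetrad to free microspore (left) and from free to polarized microspore (right), CT in blue and LTMH in orange; filled points had an adjusted p below 0.05. In CT 3 genes are filled above 0 on the left, against 19.1% of tested genes, and 9 on the right, against 19.6%. In LTMH 8 are filled above 0 on the left, against 8.95%, and 3 on the right, against 12.1%. In edgeR no member was called for a difference between CT and LTMH in either step.

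Over all 24 libraries stage took the greatest part of the variance of log2 CPM in 9 of the 10 genes, from 46.0% for F3'H to 90.6% for F3H. DFR was the exception, with 73.6% for temperature and 10.3% for stage. Temperature took 34.0% for FLS, 21.0% for CHI, 10.3% for MYB12 and at most 5.43% for CHS1, CHS2, CHIL, F3H, F3'H and ANS. The part belonging to neither alone, stage by temperature, was 29.4% for F3'H and at most 8.22% for the rest. ANS varied most within groups, at 40.0%. These shares describe the libraries and carry no test.

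**Figure D5:**
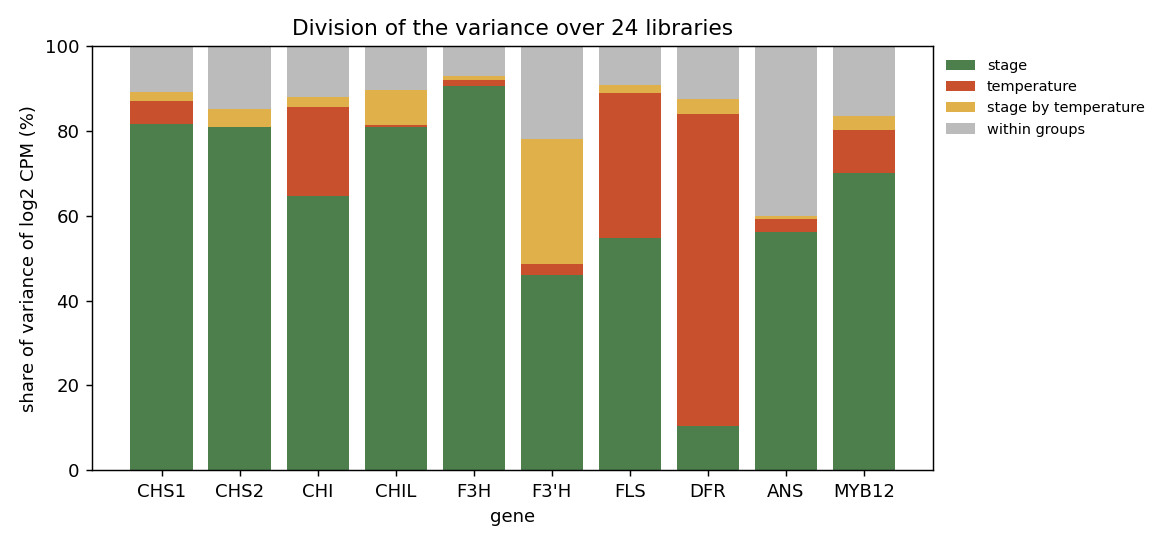
Stacked bars of the share of variance of log2 CPM over 24 libraries that lay between stages (green), between temperatures (orange), in their combination (yellow) and within groups (grey). Temperature is the main part for DFR at 73.6%, and stage for each of the other 9 genes.

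Some libraries held the highest or lowest level of many genes in their group. In free microspore CT, replicate 3 was the highest library for 9 genes and replicate 2 the lowest for 7, and their developmental positions were 0.524 and 0.236. Replicate 4 had the highest position of that group, 0.643, and was the highest library for 0 genes and the lowest for 0. In free microspore LTMH, replicate 1 was the highest for 9 genes at a position of 0.767, and replicate 4 the lowest for 7 at 0.438. Replicate 3 had the lowest position of that group, 0.363, and was the lowest for 2 genes. DFR was highest in neither free microspore CT replicate 3 nor free microspore LTMH replicate 1. Tetrad CT replicate 2 and tetrad LTMH replicate 3 were each the lowest for 7 genes. Other libraries were mixed, such as polarized microspore CT replicate 4, the highest for 5 and the lowest for 2, and polarized microspore LTMH replicate 3, the highest for 2 and the lowest for 5. By likeness of pattern, 2 tested genes outside the 10 members were closest to the mean standardised level of the 9 enzyme-side genes. They were Solyc12g055800.3 (Pearson r = 0.968 over 24 libraries) and Solyc09g059170.2 (r = 0.965). Whether they belong to the flavonoid pathway was not checked. An r above 0.9 was found for 474 of 21419 genes. All share the libraries and the change with stage. Solyc12g055800.3 went from 371 ± 7.89 CPM in tetrad CT to 628 ± 21.3 CPM in polarized microspore CT anthers (SD, n = 4).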

How the data were processed

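The authors deposited raw read counts per gene and FPKM values for 24 libraries of poly-A RNA. The tools named in the submitters' processing notes are HTSeq 0.6.1 and TopHat2 2.0.12. No genome build, annotation or strand setting was found in the labels or headers, so reads of overlapping genes and near-identical copies may not be told apart. Count divided by the deposited FPKM and library total gave 1 gene length for each member (tolerance 0.01 base).

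The count model (edgeR 4.0.16 under R 4.3.3) held 6 groups, TMM scaling and filterByExpr at a minimum count of 10, with robust dispersions, which left 18 degrees of freedom. The Benjamini-Hochberg adjustment covered 21429 genes, and standard errors were derived from the F statistic. CPM are TMM-scaled. Intervals of log2 changes are 95% intervals. Alternatives were other scalings and filters, DESeq2 1.42.0, limma 3.58.1 on log2 FPKM of the same genes, a replicate block, fewer groups, within-group position as a covariate, each library left out and, chosen after seeing the data, 2 close libraries summed. Scripts were tested on simulated data. Figures used matplotlib 3.10.9.

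The members, their names and the comparisons were chosen with earlier results of these data known. All 10 members were to be named. Neither the tables nor the RefSeq table (SLM_r2.1), which holds 8 of the 10 names as symbols, pairs names with these identifiers. Lists of other pathway genes and of cell type markers were therefore not used, and no sequence is shown.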

Additional observations from a re-analysis of the deposited data

Results flagged for a closer look

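In 6 of 60 sets of 4 libraries (10 genes in 6 groups) 1 library stood apart by Dixon's criterion, which chance gives in about 1 in 20 sets. Polarized microspore CT replicate 4 was high for DFR, at 0.597 CPM against 0.123 to 0.151 in the other libraries, and for ANS, at 5.10 CPM against 2.11 to 2.20. It was also the highest of its group for CHS1, CHS2 and CHI. CHS1 was high in tetrad CT replicate 1, at 58.8 CPM against 33.8 to 36.1, and in free microspore LTMH replicate 1, at 90.2 CPM against 37.5 to 44.7. F3H was low in polarized microspore LTMH replicate 4, at 505 CPM against 597 to 610.2. F3'H was low in tetrad LTMH replicate 3, at 8.47 CPM against 11.3 to 11.7.

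The heat effect on F3'H differed between the polarized microspore and the tetrad stage by -1.05 on the log2 scale in edgeR's test of the difference (adjusted p = 0.0380). The call was lost without any 1 of 11 libraries, at edgeR adjusted p-values of at most 0.0845.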

How the results depend on the processing

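For single genes in the heat comparisons at each stage and the CT steps, 1130 of 1200 values with 1 library left out and 500 of 548 under other settings kept direction and side of the threshold. The 9 and 6 changes of sign there were all in genes not called. So were 30 changes of sign among 2100 values in the heat average, the LTMH steps and the differences of heat effect. For CHS2 at the tetrad stage the heat change became 0.0232 in limma with either pseudocount. For F3H at the polarized microspore stage it became 0.0289 under upper-quartile scaling, 0.0177 with a filter at a mean of 1 CPM, and 0.0194 and 0.0195 in limma with pseudocounts of 1 and 0.1. With 1 library left out these changes ranged from -0.18 to 0.00707 for CHS2 and from -0.0943 to 0.0625 for F3H. For F3'H at the tetrad stage they ranged from -0.0210 to 0.25, for ANS at the free microspore stage from -0.11 to 0.46, and for MYB12 at the polarized microspore stage from -0.00302 to 0.17.

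The number of members called also moved. With 1 library left out it ranged from 2 to 4 (4 as reported) for heat at the tetrad stage, from 1 to 4 (2 as reported) for heat at the free microspore stage, and from 0 to 7 (4 as reported) for the CT step from tetrad to free microspore. It ranged from 5 to 8 (8 as reported) and from 2 to 7 (4 as reported) for the successive LTMH steps, and from 0 to 1 (1 as reported) for the heat effect at the polarized microspore against the tetrad stage. The share of all tested genes called moved too. With 1 library left out it ranged from 13.7% to 22.2% (21.2% as reported) for heat at the tetrad stage. For heat at the free microspore stage that share ranged from 5.83% to 10.1%. For heat at the free microspore stage DESeq2 called 4 members (11.4% of all tested genes, against 8.82% as reported) and a fit of only the groups compared called 1 (2.52%). For the CT step from tetrad to free microspore 2 were called with no filter (28.6% of tested genes, against 40.7% as reported) and 7 in limma with either pseudocount (44.5% and 44.7%). With only the groups compared 1 was called (31.3%), DFR not being tested there, and with tetrad CT replicates 1 and 2 summed, an alternative chosen after seeing the data, 2 were called (33.4%). For the LTMH step from free to polarized microspore 7 were called with within-group position as a covariate (29.1% of tested genes, against 26.0% as reported), which removes no difference in position between groups. For the heat effect at the polarized microspore against the tetrad stage limma called 2 with either pseudocount (10.8% and 10.1% of tested genes, against 4.09%), and against the free microspore stage, where 0 were called as reported, DESeq2 called 2 (0.476%) and limma on log2(FPKM + 1) called 1 (0.0840%). The cause of these moves was not tested. In limma the median heat change of all tested genes at the tetrad stage was 0.11 with a pseudocount of 1 and 0.14 with 0.1, against -0.01 as reported, so member changes there are to be read relative to it.

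Replicate numbers were not taken to pair the samples. Deviations of same-numbered CT and LTMH libraries from their group means correlated from -0.38 to 0.35 over all tested genes, and 2 of 12 CT libraries correlated best with the LTMH library of their own number. Between stages, same-numbered CT libraries correlated from -0.08 to 0.30 and LTMH libraries from -0.16 to 0.17, and in no pair of stages were all 4 correlations over 0.1. From tetrad to free microspore 1 of 4 CT and 0 of 4 LTMH libraries correlated best with their own number. From free to polarized microspore 2 of 4 CT and 1 of 4 LTMH libraries did. From tetrad to polarized microspore 3 of 4 did at each temperature. With a replicate block 2 members were called for the CT step from tetrad to free microspore in place of 4 (41.4% of tested genes, against 40.7%). From 0 to 99 reads per library lie behind the DFR values and from 11 to 94 behind those of ANS, which limits their precision.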
